A study of Mus musculus with 6 samples.

Results

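Krt6a, Krt6b, Krt16 and Krt17, the stress keratins of mouse epidermis, were taken from the deposited expression table by gene symbol, and all 4 were found among its 19309 genes. RNA of cheek skin was sequenced from 3 C57BL/6 mice aged 6 to 8 weeks, in 6 libraries. In every mouse the shaved right cheek was wiped with acetone mixed with ether (30 s) and with water after it (30 s), a dry skin model called AEW, while the left cheek was the vehicle control with 60 s of water. Both were wiped each morning and afternoon, and tissue was taken on day 12, so right and left cannot be told apart from AEW and vehicle. The groups are 3 AEW libraries and 3 vehicle libraries, and the replicate number is the mouse number.

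Keratins build the intermediate filaments of epithelial cells, and each filament pairs a type I keratin with a type II keratin. Krt6a and Krt6b encode type II keratins, and Krt16 and Krt17 encode type I keratins. In healthy skin these genes are mainly used in the hair follicle and its surroundings, and they are known to switch on in the epidermis between follicles after wounding, barrier loss or inflammation. Resting epidermis instead pairs Krt5 with Krt14 in basal cells and Krt1 with Krt10 above them.

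Krt6a (gene 16687) and Krt6b (gene 16688) lie on chromosome 15, and Krt16 (gene 16666) and Krt17 (gene 16667) on chromosome 11. In the GENCODE M21 transcripts, which belong to build GRCm38 while the submitters' processing notes name GRCm39, the coding sequences of Krt6a and Krt6b were 97.8% identical over 1659 aligned bases. Their longest identical coding stretch, shown because no read of 50 bases inside it can tell the genes apart, ran for 280 bases from coding base 34 to 313 of both genes.
Krt6a and Krt6b, shared stretch: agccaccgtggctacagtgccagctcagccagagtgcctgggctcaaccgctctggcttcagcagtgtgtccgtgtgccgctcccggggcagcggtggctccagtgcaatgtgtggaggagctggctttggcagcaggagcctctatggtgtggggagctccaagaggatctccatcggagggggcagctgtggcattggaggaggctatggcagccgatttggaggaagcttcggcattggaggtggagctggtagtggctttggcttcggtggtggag
The coding window of 50 bases in which they differed most, with 10 differing bases in capitals, spanned coding bases 827 to 876 and shows where a read does separate them.
Krt6a: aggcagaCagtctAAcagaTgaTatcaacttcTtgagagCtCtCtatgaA
Krt6b: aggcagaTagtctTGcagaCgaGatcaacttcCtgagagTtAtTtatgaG

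Over the whole transcripts, 972 of the 2229 windows of 50 bases in Krt6a and of the 2186 in Krt6b occurred exactly in the other gene. That is 43.6% of the Krt6a windows and 44.5% of the Krt6b windows. Counting every other gene, 62.0% of the Krt6a windows and 50.1% of the Krt6b windows were not unique, with 15.5% of the Krt6a windows in Gm49428, 9.96% in Gm5478 and 6.73% in Krt5. The separate Krt6a and Krt6b values therefore rest in part on how the authors divided shared reads, and are uncertain. For Krt16 37.6% of the windows occurred in another gene, 25.2% in Gm11597 and 12.4% in Krt14. For Krt17 3.99% did, most of them in Krt14. Allowing 2 mismatches, 30.3% of the Krt16 windows and 19.6% of the Krt17 windows matched Krt14. The Krt16 and Krt17 values may thus also depend on shared reads, which was not tested.

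All 4 stress keratins were higher in AEW than in vehicle skin, but by very different amounts. Levels are given as the deposited TPM, a unit scaled for gene length and library size. Fold changes come from edgeR's quasi-likelihood test on the estimated counts, with p-values adjusted over all 15109 tested genes by the Benjamini-Hochberg method and a threshold of 0.05. All 4 passed, against a background of 4.85% of tested genes called higher and 6.8% called lower. With the mouse as a block, Krt6a and Krt16 passed, against 1.99% of tested genes called higher and 3.89% called lower. In all 4 the 3 AEW libraries lay above the 3 vehicle libraries, which was so for 17.4% of tested genes, while 19.5% had all AEW libraries below. With both cheeks of mouse 3 left out, a choice made after the data were seen, edgeR called no gene in either direction. The 4 members were thus not called either (adjusted p of 0.0797 for Krt16 to 0.172 for Krt17). Their log2 fold changes stayed between 0.74 and 6.88. With mouse 2 left out Krt16 alone of the 4 was called (adjusted p = 0.0442), in a fit that called 14 genes higher and 16 lower. With mouse 1 left out all 4 were called. At an unadjusted p under 0.05, a looser threshold than that of the calls, that fit had 2536 genes higher and 2258 lower. The same threshold gave 1575 higher and 1826 lower without mouse 2, and 1104 and 1474 without mouse 3.

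**Figure D1:**
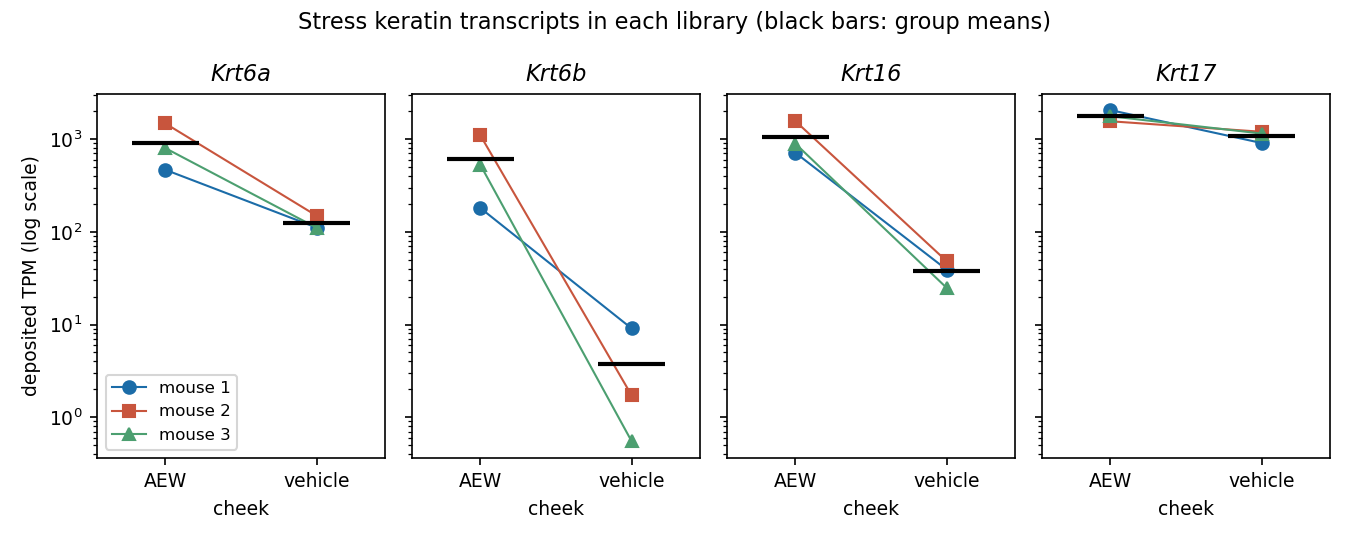
Deposited TPM on a log axis for each stress keratin in AEW cheeks (left of each panel) and vehicle cheeks (right), with a line joining the cheeks of each mouse and black bars for group means. Krt6b spans 181 to 1100.4 TPM in AEW cheeks and 0.55 to 9.07 TPM in vehicle cheeks, whereas the Krt17 groups lie close together.

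Among the type II members, Krt6a stood at 467, 1477 and 800.1 TPM in AEW cheeks of mice 1, 2 and 3, against 111, 149 and 111 TPM in the vehicle cheeks of the same mice. Every AEW cheek was above every vehicle cheek, with mouse 2 highest in both groups. The means were 915 ± 515 TPM in AEW skin and 124 ± 22.04 TPM in vehicle skin (SD, n = 3 each). The difference was 2.86 ± 0.44 on the log2 scale (SE), with edgeR giving an adjusted p of 0.0147. Krt6a also passed in the blocked fit (adjusted p = 0.0203), but not without vehicle replicate 1 (adjusted p = 0.0706) or vehicle replicate 3 (adjusted p = 0.082).

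Krt6b stood at 181, 1100.4 and 529 TPM in AEW cheeks of mice 1, 2 and 3, and was nearly silent in their vehicle cheeks, at 9.07, 1.72 and 0.55 TPM. The rounded estimated counts behind these values were 4606, 29014 and 13059 in AEW cheeks and 230, 43 and 13 in vehicle cheeks. Mouse 1 had both the lowest AEW value and the highest vehicle value. On the log2 scale the rise was 7.28 ± 1.20 (SE; adjusted p of 0.017), which was rank 5 of 15109 tested genes by size of rise. The call was lost in the blocked fit (adjusted p = 0.0576) and also without vehicle replicate 3 (adjusted p = 0.0726).

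Within mice, the AEW to vehicle ratio of Krt6b in CPM, counts scaled to library size by edgeR's TMM method, was 18.2 in mouse 1 (95% exact binomial interval 15.96 to 20.90). It was 656 in mouse 2 (487 to 906) and 934 in mouse 3 (546 to 1755). These intervals cover counting error only. The ratio in mouse 1 was below the intervals of the other mice, so a pooled fold for Krt6b does not describe each mouse. With a single library per cheek, mice cannot be told apart from libraries here. The division of reads shared with Krt6a may also have moved these ratios, which was not tested.

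With Krt6a and Krt6b summed as 1 gene, which removes the division of reads between them but not that with other genes, the sum stood at 825, 3584 and 1704 CPM in AEW cheeks. The vehicle cheeks had 168, 204 and 153 CPM. The sum rose by 3.54 ± 0.52 on the log2 scale (SE; adjusted p of 0.0131), and passed in the blocked fit as well (adjusted p = 0.0237).

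Among the type I members, Krt16, the partner of the Krt6 proteins, stood at 714, 1567 and 894 TPM in AEW cheeks, against 39.1, 48.2 and 24.9 TPM in vehicle cheeks. The lowest AEW cheek was far above the highest vehicle cheek. The means were 1058 ± 450 TPM in AEW skin and 37.4 ± 11.8 TPM in vehicle skin (SD, n = 3 each). Krt16 rose by 4.79 ± 0.42 on the log2 scale (SE; edgeR adjusted p of 0.00478). It passed in the blocked fit (adjusted p = 0.0136) and whichever of the 6 libraries was dropped (adjusted p up to 0.0343). The AEW to vehicle ratio was 16.7 for mouse 1, against 33.5 for mouse 2 and 33.8 for mouse 3.

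Krt17, known from the hair follicle as well as from injured epidermis, was abundant on both sides, at 2059, 1559 and 1766 TPM in AEW cheeks and 908, 1200.4 and 1149 TPM in vehicle cheeks. Its groups did not overlap, and in AEW skin the order of the mice was the reverse of that of Krt6a, Krt6b and Krt16, with mouse 1 highest and mouse 2 lowest. The means were 1795 ± 251 TPM in AEW skin and 1086 ± 156 TPM in vehicle skin (SD, n = 3 each). The rise was 0.69 ± 0.13 on the log2 scale (SE; edgeR adjusted p of 0.0235). The blocked fit lost the call (adjusted p = 0.0584). So did dropping AEW replicate 2 (adjusted p = 0.0596), vehicle replicate 1 (0.0804) or vehicle replicate 3 (0.0991). The AEW to vehicle ratio was highest for mouse 1, at 2.02, and was 1.40 for mouse 2 and 1.49 for mouse 3.

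By mean TPM among all 19309 genes, Krt17 was at rank 94 in AEW skin and rank 164 in vehicle skin. Krt16 was at rank 167 in AEW skin and 3525 in vehicle skin, and Krt6a at 187 in AEW skin and 1121 in vehicle skin. Krt6b was at rank 262 in AEW skin and 11703 in vehicle skin. Thus Krt17 was the most abundant stress keratin by mean in both groups, although in AEW mouse 2 it was level with Krt16. In AEW skin the means of Krt16, Krt6a and Krt6b followed. Their values overlapped between mice, but within each AEW library Krt16 was above Krt6a, and Krt6a above Krt6b. In vehicle skin Krt6a, Krt16 and Krt6b followed Krt17 in that order, with no overlap between neighbours.

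**Figure D2:**
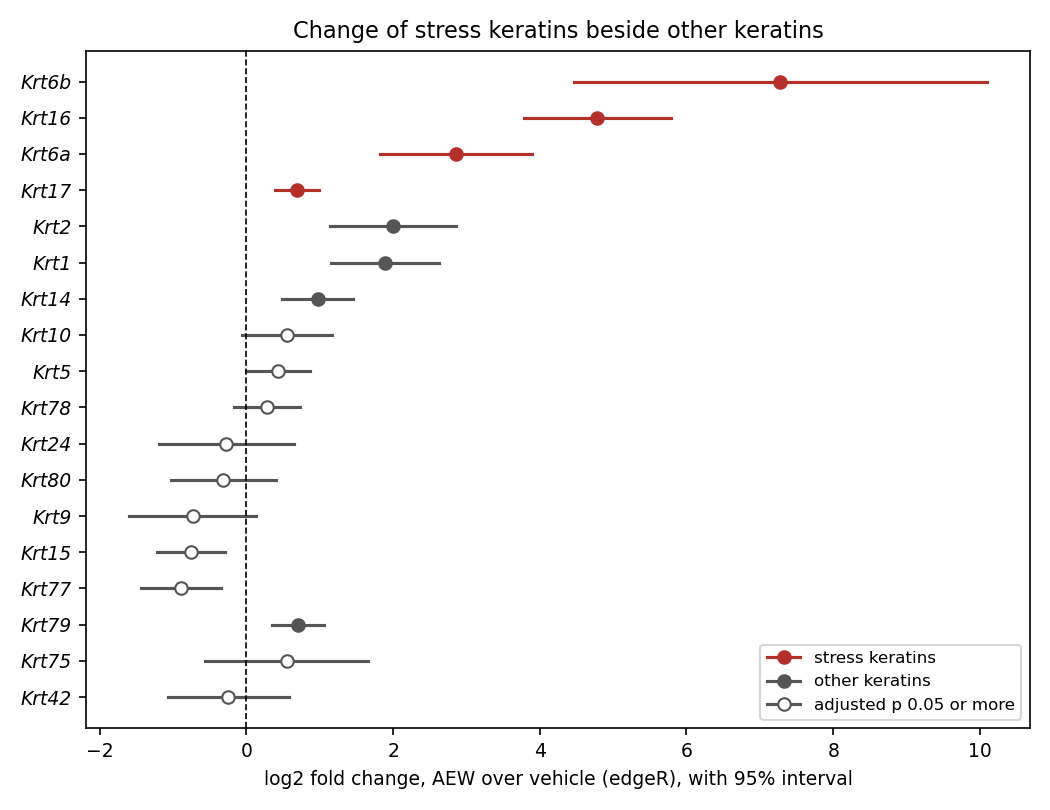
Log2 fold change of AEW over vehicle from edgeR (x axis) with its 95% interval for the 4 stress keratins (red) and 14 other keratins (grey). Filled points passed an adjusted p of 0.05. Krt6b, Krt16 and Krt6a lie between 2.86 and 7.28, and Krt17 at 0.69.

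The members also changed relative to one another. The TPM of Krt6b over that of Krt6a was 0.387, 0.745 and 0.661 in AEW cheeks of mice 1, 2 and 3, against 0.0816, 0.0115 and 0.00497 in vehicle cheeks. That ratio depends on how reads shared by the 2 genes were divided. In vehicle mice 2 and 3 it rests on 43 and 13 Krt6b counts. Krt16 over Krt17 was 0.347, 1.00 and 0.506 in AEW cheeks, against 0.0431, 0.0402 and 0.0216 in vehicle cheeks. The third ratio, Krt6a over Krt16, was 0.654, 0.943 and 0.895 in AEW cheeks and 2.84, 3.09 and 4.45 in vehicle cheeks. None of these 3 ratios overlapped between groups. Each gave p = 0.1 in a two-sided exact permutation test, unchanged by adjustment over the 3 ratios, which is the smallest p that 3 against 3 libraries allow. That test treats the cheeks as independent, and with labels exchanged within mice only, each gave an exact p of 0.25, the smallest that 3 mice allow.

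Bulk skin mixes cell types, so that fewer cells of a type and less RNA per cell cannot be told apart. The 6 markers of basal keratinocytes, which include Krt5 and Krt14, summed to 10231 to 12117 CPM in AEW cheeks and 5553 to 8886 CPM in vehicle cheeks, and 1 of the 6, Krt14, was called higher. The 10 skeletal muscle markers summed to 11364 to 15853 CPM in AEW cheeks and 27633 to 39934 CPM in vehicle cheeks, with 9 of 10 called lower. Of 8 markers of dividing cells 7 were called higher, and their sum was 399 to 857 CPM in AEW cheeks and 167 to 245 CPM in vehicle cheeks. The part of these shifts in the keratin results was not tested. The 6 oral mucosa markers summed to 4.41 to 7.16 CPM in AEW cheeks and 5.83 to 6.23 CPM in vehicle cheeks, and none of them was at 0 in every library.

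Each member was therefore also set against the basal keratin of its own type, a comparison chosen after the data were seen. Krt6a was at 13.7%, 46.8% and 23.6% of the TPM of Krt5 in AEW cheeks, against 6.36%, 5.02% and 4.63% in vehicle cheeks. Krt6b was at 5.30%, 34.9% and 15.6% of Krt5 in AEW cheeks, against 0.519%, 0.0579% and 0.023% in vehicle cheeks. Krt16 was at 11.7%, 22.3% and 14.8% of Krt14 in AEW cheeks, against 1.59%, 1.22% and 0.832% in vehicle cheeks. For these 3 the groups did not overlap (exact permutation p = 0.1 each, 0.133 adjusted over 4 ratios, and 0.25 each with labels exchanged within mice).

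Krt17 behaved differently on this scale, at 33.7%, 22.2% and 29.2% of Krt14 in AEW cheeks, against 36.8%, 30.3% and 38.4% in vehicle cheeks. It was lower in the AEW cheek of all 3 mice, the groups overlapped, and the exact permutation p was 0.2, or 0.25 with labels exchanged within mice. Thus the higher Krt17 per library came with a larger rise of Krt14, which was 0.97 ± 0.21 on the log2 scale (SE; adjusted p of 0.0319). Against Krt5, the basal keratin of the other type, Krt17 rose more in each mouse, a comparison chosen after the values were seen. The AEW to vehicle ratios in CPM of mice 1, 2 and 3 were 2.02, 1.40 and 1.49 for Krt17 and 1.78, 1.10 and 1.33 for Krt5. The direction for Krt17 therefore turned with the scale and the basal keratin used.

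**Figure D3:**
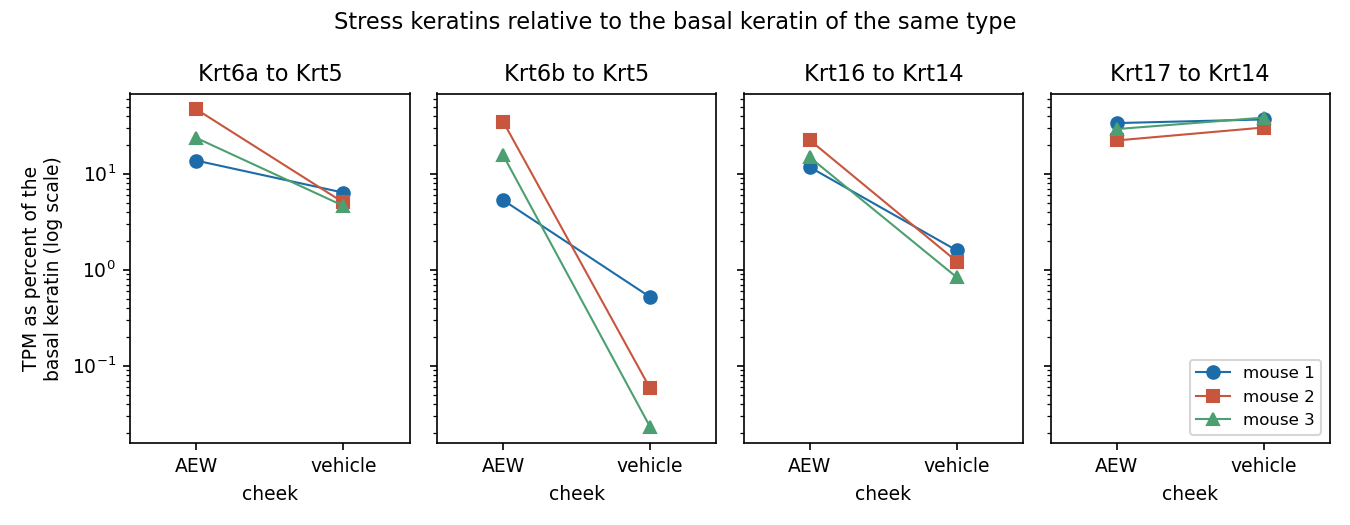
TPM of each stress keratin as a percent of the TPM of Krt5 (type II) or Krt14 (type I), on a log axis, in AEW cheeks (left) and vehicle cheeks (right) of the 3 mice. Krt6a, Krt6b and Krt16 are higher in every AEW cheek, and Krt17 is 22.2% to 33.7% in AEW cheeks and 30.3% to 38.4% in vehicle cheeks.

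The stress keratins made up a larger part of all keratin transcripts in AEW skin. Krt6a and Krt6b together held 6.25%, 19.2% and 10.6% of the summed TPM of 22 type II keratins in AEW cheeks, against 2.22%, 1.85% and 1.67% in vehicle cheeks. Krt16 and Krt17 held 19.7%, 19.3% and 17.0% of that of 26 type I keratins in AEW cheeks, against 12.5%, 11.1% and 12.5% in vehicle cheeks. These shares are descriptions with no test. In the type I set Krt17 alone accounted for 14.6%, 9.61% and 11.3% in AEW cheeks and 12.0%, 10.7% and 12.2% in vehicle cheeks. Krt16 was at 5.06%, 9.66% and 5.73% in AEW cheeks and 0.515%, 0.431% and 0.264% in vehicle cheeks. The larger type I share thus came with Krt16 alone in mice 2 and 3, and with both genes in mouse 1.

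The stress keratins were out of balance between types. Summed type II members stood at 648, 2578 and 1329 TPM in AEW cheeks, and 120, 151 and 111 TPM in vehicle cheeks. Summed type I members stood at 2773, 3126 and 2660 TPM in AEW cheeks, and 947, 1249 and 1174 TPM in vehicle cheeks. The ratio of type II to type I members was thus 0.234, 0.825 and 0.500 in AEW cheeks against 0.127, 0.121 and 0.0948 in vehicle cheeks. Over all listed keratins that ratio was 0.735 to 0.829 in AEW cheeks and 0.708 to 0.726 in vehicle cheeks, and in AEW mouse 2 the stress keratins alone were close to it.

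**Figure D4:**
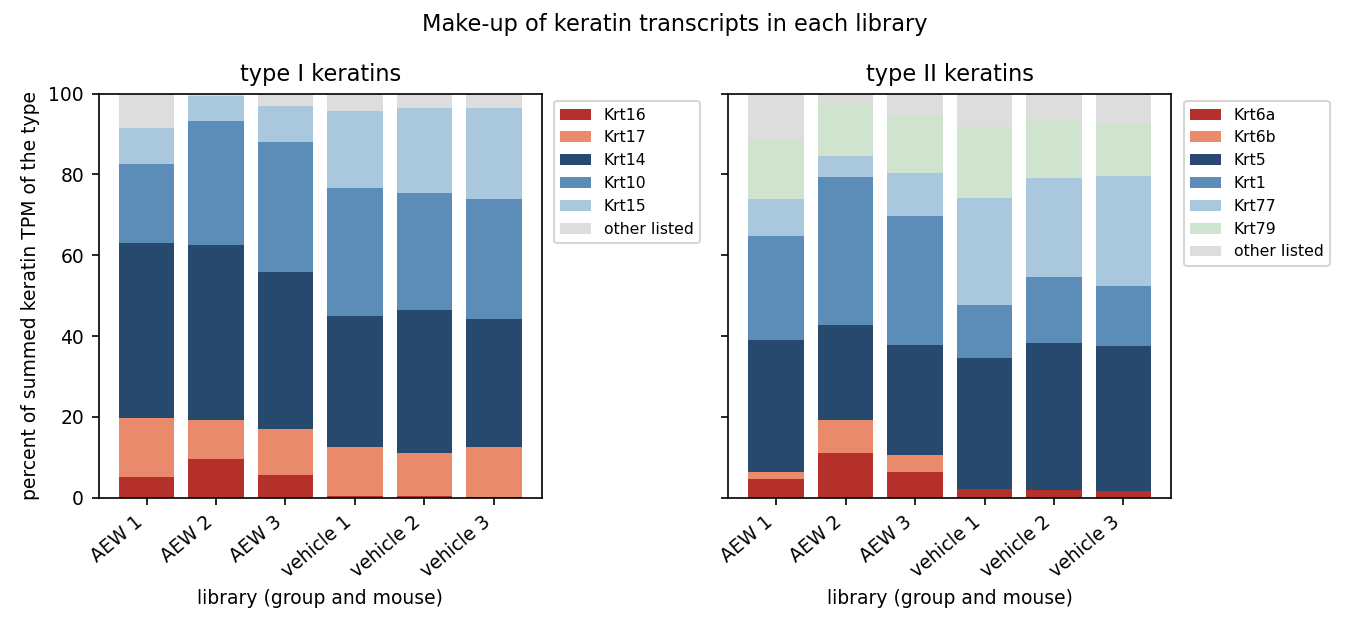
Percent of the summed TPM of listed type I keratins (left panel) and type II keratins (right panel) held by each gene, as stacked bars for the 3 AEW libraries and then the 3 vehicle libraries. The red and orange stress keratin segments reach 17.0% to 19.7% of type I and 6.25% to 19.2% of type II in AEW libraries.

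Of the 11 tested keratins of the epidermis between follicles, 3 were higher and 0 lower (27.3% and 0%, beside 4.85% and 6.8% of all tested genes). Their median log2 fold change was 0.28 beside 0.014 over all tested genes. At an unadjusted p under 0.05, edgeR gave 2 lower, and the share of all tested genes at that threshold is not given here. DESeq2 called 2 lower, where it called 1511 lower over all genes. Krt1 stood at 5577 ± 1915 CPM in AEW skin and 1504 ± 425 CPM in vehicle skin (SD, n = 3 each; adjusted p = 0.0171). Krt14 and Krt2, a keratin of late differentiation that was rare here, were the others called. Krt5, the basal partner of Krt14, had a log2 fold change of 0.43 (adjusted p = 0.169), and Krt10, the partner of Krt1, 0.55 (adjusted p = 0.203). Krt77, a suprabasal keratin, had -0.89 (adjusted p = 0.0504). Dropping vehicle replicate 1 or 3 left 0 higher keratins, dropping AEW replicate 2 left 1, and dropping AEW replicate 3 left 2 with 1 lower. Calls over all tested genes moved as well in the fits without a library, from 23 to 1197 higher and 117 to 1041 lower. Without AEW replicate 2 they were 175 higher and 258 lower.

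Of 32 tested keratins of follicles and simple epithelia 2 were higher and 0 lower, with a median log2 fold change of 0.062. These shares, 6.25% and 0%, stand beside 4.85% and 6.8% of all tested genes, so the higher share was near that of all genes. At an unadjusted p under 0.05 edgeR gave 2 lower, and the share of all tested genes at that threshold is not given here. DESeq2 called 0 lower, where it called 1511 lower over all genes. Krt79, a keratin of the follicle funnel, was at 2067 ± 246 CPM in AEW skin and 1268 ± 175 CPM in vehicle skin (SD, n = 3 each; adjusted p = 0.032). Krt84 was higher by a log2 fold change of 2.52 (adjusted p = 0.0361), with means of 3.49 CPM in AEW skin and 0.600 CPM in vehicle skin. Krt23 and Krt20 had log2 fold changes of -0.55 and -1.08 (adjusted p = 0.119 and 0.141). Both calls were lost without AEW replicate 2 or 3 or vehicle replicate 1 or 3, and 1 was left without vehicle replicate 2. Of all tested genes, 175 were called higher without AEW replicate 2, against 733 with every library.

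Krt75, which accompanies Krt6a in the companion layer of the follicle, gave 89.0, 19.2 and 40.2 TPM in AEW cheeks and 24.5, 35.7 and 35.8 TPM in vehicle cheeks. The groups overlapped, and the difference was 0.55 ± 0.47 on the log2 scale (SE; adjusted p of 0.47), turning to -0.17 without AEW replicate 1. Krt42, a type I relative of Krt17 whose coding sequence was 81.1% identical to it, was at 0.46 to 0.83 TPM in AEW cheeks and 0.56 to 0.89 TPM in vehicle cheeks.

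The sum of hair matrix and shaft markers was highest, like Krt17, in AEW mouse 1. The 9 measured markers of hair matrix and shaft summed to 573, 37.1 and 257 CPM in AEW cheeks of mice 1, 2 and 3, against 147, 141 and 147 CPM in vehicle cheeks. The order of this sum over the AEW cheeks was that of Krt17 and Krt75, and the reverse of that of Krt6a, Krt6b and Krt16. The match did not hold in vehicle cheeks, where the sum was nearly level and lowest in mouse 2. There Krt17 was at 796, 997 and 974 CPM in mice 1, 2 and 3, and Krt75 was also lowest in mouse 1. An order of 3 cheeks is a description and was not tested. Of the 9, 1 was called higher, and Krt31 was not highest in AEW mouse 1, with 10.4, 0.105 and 13.03 CPM in AEW cheeks and 13.3, 22.6 and 10.2 CPM in vehicle cheeks. The 10 markers of follicle stem cells and outer root sheath summed to 1862 to 2477 CPM in AEW cheeks and 2332 to 3311 CPM in vehicle cheeks, with 0 called. Their part in the Krt17 result was not tested.

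A list built around signals known to induce stress keratins held EGF, interleukin, tumour necrosis factor and interferon gamma family ligands and receptors. Its 34 tested genes were tested singly, with no test of the list. There 5 were higher and 3 lower, with a median log2 fold change of 0.25. That is 14.7% higher and 8.82% lower, beside 4.85% and 6.8% of all tested genes, so the lower share was near that of all genes. Epgn, an EGF receptor ligand, was at 16.1 ± 2.69 CPM in AEW skin and 4.72 ± 0.86 CPM in vehicle skin (SD, n = 3 each; adjusted p = 0.00817). Areg, another such ligand, was higher by a log2 fold change of 1.29 (adjusted p = 0.0271, and 0.0681 with the mouse as a block). Egf itself fell by 1.27 on the log2 scale (adjusted p = 0.0208), and Il20ra, a receptor subunit for interleukin 20 cytokines, fell by 0.95 (adjusted p = 0.014).

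The remaining called genes, and Il1f9 and Egfr, were named after their values were seen. Btc, an EGF receptor ligand gene, was the third called lower, at -1.03 (adjusted p = 0.0421). The others called higher were Il1f6 and Il1f8, which encode interleukin 36 cytokines, and Il1rl2, which encodes their receptor. Their log2 fold changes were 1.80, 1.38 and 0.58 (adjusted p = 0.0442, 0.0473 and 0.049), and with the mouse as a block only Il1f6 of these 3 passed. Il1f9, a further interleukin 36 cytokine gene, had 0.71 (adjusted p = 0.13). Egfr, the receptor for Epgn and Areg, had 0.22 (adjusted p = 0.187). With the mouse as a block 3 genes of this list were higher and 2 lower. Dropping AEW replicate 1 gave 11 higher genes, and dropping any of the other 5 libraries gave 1. Lower genes numbered 0 when vehicle replicate 1 or 3 was dropped, 1 when AEW replicate 2 was, and 2 when AEW replicate 3 or vehicle replicate 2 was. Calls over all tested genes moved too, with 1197 higher without AEW replicate 1 and 23 in the fit with the fewest.

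Of 34 tested transcription regulators of stress keratin genes 1 was higher and 2 lower (2.94% and 5.88%, beside 4.85% and 6.8% of all tested genes), with a median log2 fold change of 0.13. At an unadjusted p under 0.05 edgeR gave 5 higher and 5 lower, and the share of all tested genes at that threshold is not given here. Atf3, a factor of the stress response, was at 10.1 ± 1.56 CPM in AEW skin and 39.5 ± 10.9 CPM in vehicle skin (SD, n = 3 each; adjusted p = 0.00774). Tead1, a partner of the Yap1 coactivator, fell by 0.51 on the log2 scale (adjusted p = 0.0337). Fosl2, an AP-1 subunit, had a log2 fold change of 0.46 (adjusted p = 0.0492, and 0.067 with the mouse as a block), and Nr3c1, the glucocorticoid receptor gene, had -0.37 (adjusted p = 0.0667). Dropping AEW replicate 1 gave 4 higher genes, and dropping any of the other 5 libraries gave 0. Dropping AEW replicate 2 or any vehicle replicate gave 1 lower gene. In the same fits all tested genes gave 1197 higher without AEW replicate 1, and 175 higher and 258 lower without AEW replicate 2.

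Of 24 tested anchors and partners of keratin filaments 5 were higher and 0 lower (20.8% and 0%, beside 4.85% and 6.8% of all tested genes). Their median log2 fold change was 0.27. At an unadjusted p under 0.05 edgeR gave 3 lower, and the share of all tested genes at that threshold is not given here. DESeq2 called 2 lower, where it called 1511 lower over all genes. Flg encodes filaggrin, which bundles keratin filaments, and was at 1830 ± 426 CPM in AEW skin and 355 ± 160 CPM in vehicle skin (SD, n = 3 each; adjusted p = 0.0125). Sfn, which encodes the 14-3-3 sigma protein, a binding partner of Krt17, was at 1309 ± 275 CPM in AEW skin and 540 ± 89.6 CPM in vehicle skin (adjusted p = 0.0139). Dsg1b and Dsg3, desmosomal cadherin genes, had log2 fold changes of 0.91 and 0.99 (adjusted p = 0.04 and 0.0448). Dsp, the desmoplakin gene that ties keratins to desmosomes, had 0.03 (adjusted p = 0.92) and was named after its values were seen. Dropping AEW replicate 1 gave 9 higher genes, dropping AEW replicate 2 or 3 gave 2, and dropping vehicle replicate 1 or 3 gave 0. Over all tested genes, 1197 were higher without AEW replicate 1, 175 without AEW replicate 2, and 23 in the fit with the fewest.

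**Figure D5:**
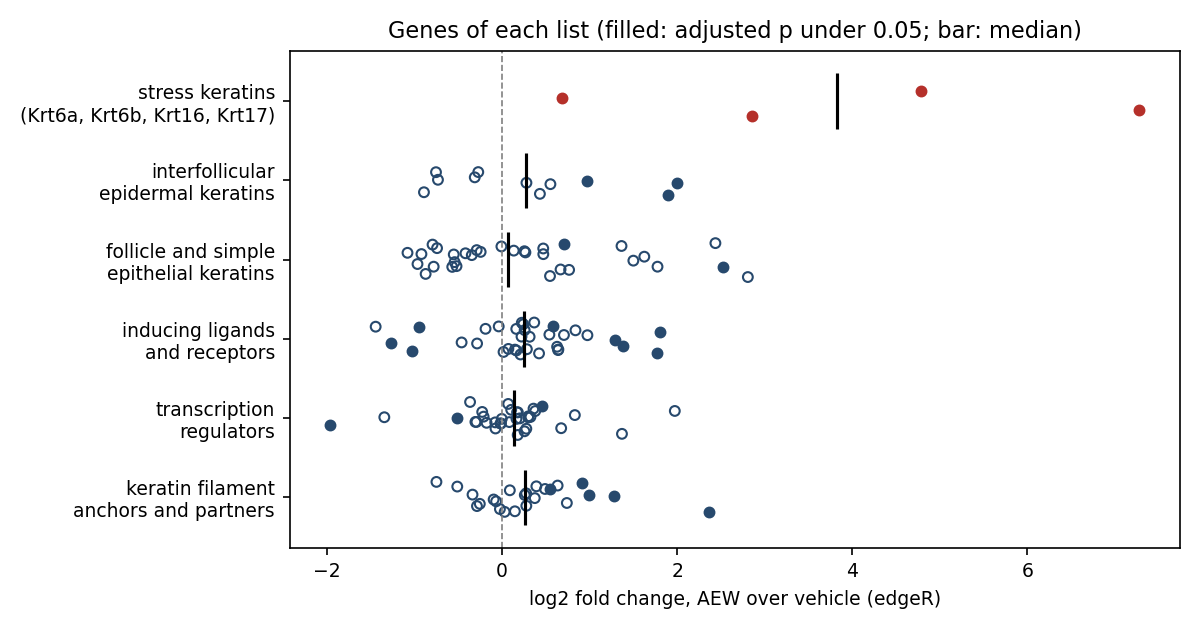
Log2 fold change of AEW over vehicle (x axis) for each tested gene of 6 sets (rows), with filled points for an adjusted p under 0.05 and a black bar for the median. The 4 stress keratins reach 7.28, while the medians of the other sets lie between 0.062 and 0.28.

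Likeness to each member was measured as Pearson's r of log2 CPM over the 6 libraries among 13406 other genes, as a description in which the split between groups dominates. Krt16 was most like Stfa2, a stefin gene (r = 0.997), followed by E2f4 and Abhd17c. Stfa2 was at 15.4 ± 8.46 CPM in AEW skin and 0.255 ± 0.136 CPM in vehicle skin (SD, n = 3 each), a log2 fold change of 5.88. Krt6a was most like Nsd3, Dennd2d and Dnase2a (r of 0.996 each), and Krt6b most like Adcy7 (0.995), Arl5a and Stxbp2 (0.991 each). Krt17 was most like Nup54 and Alg8 (0.998 each) and Pa2g4 (0.996). Apart from Stfa2 these genes had log2 fold changes between 0.13 and 0.88, well below those of Krt6a, Krt6b and Krt16. Among the members themselves r was 0.974 between Krt6a and Krt16, 0.971 between Krt6b and Krt16, and 0.941 between Krt6a and Krt6b. For Krt17 it was 0.900 with Krt16, 0.837 with Krt6a and 0.790 with Krt6b.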

How the data were processed

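Per the labels' protocols, poly(A)-selected RNA gave single-end reads of 50 bases. The submitters' processing notes name HISAT and build GRCm39. The sources used here give neither the counter nor the annotation. Per the file headers, the authors deposited TPM, FPKM and read counts per library. The read counts deposited by the authors are fractional, per the file headers and values, so they are called estimated counts here. Whether strand was kept is not given, so antisense genes cannot be told apart. Library totals were 18449145 to 19506462 estimated counts. The binomial intervals of the ratios within mice cover counting error only. The intervals of the edgeR fold changes come from its fit over the libraries and include the spread between replicates.

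Estimated counts were rounded, filtered with filterByExpr at a minimum count of 10, scaled by TMM and tested in R 4.3.3 by the quasi-likelihood test of edgeR 4.0.16 on the 2 groups. The SE is the log2 fold change divided by the root of F. Deposited TPM gave levels, shares and ratios between genes, and deposited FPKM an alternative. DESeq2 1.42.0 and limma 3.58.1 were alternatives. Ratios were tested by exact permutation with scipy 1.17.1. The edgeR step was tested on simulated data. Sequence windows and coding alignments used GENCODE M21 transcripts and biopython 1.88.

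Both cheeks of a mouse share an animal, so the numbers pair the libraries. Deviations from group means correlated at -0.244, -0.165 and -0.246 within mice, so the fit without a block can give p-values that are too small. Replicates differed by more than sampling noise in every pair.

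The members and lists were chosen with earlier results of these data known. Named genes are the members, Krt5, Krt14, Krt1, Krt10, Krt75 and Krt42, the 4 genes of each list with the smallest p, and the 3 genes most like each member among those whose mean log2 CPM reached 1 and with no predicted-model symbol. Markers of 14 cell types were summed, and those not named in the results are given in the closing section.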

Additional observations from a re-analysis of the deposited data

How the results depend on the processing

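Per library, the 4 stress keratins kept their direction under every alternative fit run, but relative to Krt14 Krt17 was lower in AEW cheeks (log2 difference -0.32, and -0.46 to -0.16 over the fits that left out a library). With the mouse as a replicate block, Krt6b (log2 fold change 7.66) and Krt17 (0.69) lost their calls, and the counts were 300 genes higher and 588 lower, against 733 and 1027 without it, with 3 ligands or receptors and 0 regulators higher. The block changed no other member's call. Over the fits that left out a library, log2 fold changes were 2.26 to 3.18 for Krt6a, 6.43 to 9.04 for Krt6b, 4.33 to 5.01 for Krt16 and 0.59 to 0.75 for Krt17. Those fits called 23 to 1197 genes higher and 117 to 1041 lower. The counts were 0 to 4 higher and 0 to 1 lower for epidermal keratins, 0 to 2 higher for follicle keratins, 1 to 11 higher and 0 to 3 lower for ligands and receptors, 0 to 4 higher and 1 to 2 lower for regulators, and 0 to 9 higher for anchors. Krt75 ranged from -0.17 without AEW replicate 1 to 0.92 without AEW replicate 2. The cause of these changes was not tested.

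With both cheeks of mouse 2 left out, a choice made after the data were seen, 14 genes were higher and 16 lower, and Krt6a (2.40), Krt6b (6.08) and Krt17 (0.79) were not called. With mouse 3 left out, edgeR called 0 higher and 0 lower (1104 and 1474 at an unadjusted p under 0.05), and the members had 2.90, 6.88, 4.69 and 0.74 for Krt6a, Krt6b, Krt16 and Krt17. DESeq2 called 1362 genes higher and 1511 lower. Among them were 2 epidermal keratins lower, 9 ligands or receptors higher, 3 regulators higher, and 8 anchors higher and 2 lower. Without the filter on low counts 2 epidermal keratins were lower and 0 regulators higher. Under limma on log2(TPM + 0.1) and on log2(TPM + 1), 666 genes were lower each time, with 0 regulators higher and 1 lower. Depth limits Krt6b in vehicle mouse 3, where the ratio rested on 13 counts.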

Other observations

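A predicted gene on the Krt6 side of the family, Gm5414, was picked out after its values were seen. It shared 139 of the 2186 windows of 50 bases of Krt6b, and 81 of the 2229 of Krt6a, so its reads may be divided with theirs. Its level was 1.34, 5.62 and 1.96 CPM in AEW cheeks of mice 1, 2 and 3, against 0.219, 0 and 0.0556 CPM in vehicle cheeks. The groups did not overlap, and edgeR's adjusted p was 0.0231, or 0.0705 with the mouse as a block.

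Summed markers of the remaining cell types were as follows. Sebaceous gland markers reached 7598 to 8421 CPM in AEW cheeks and 8537 to 10842 CPM in vehicle cheeks, with 1 of 8 called higher and 1 lower. Salivary gland markers reached 18.5 to 25.7 CPM in AEW cheeks and 27.3 to 46.6 CPM in vehicle cheeks, and of 2 tested Aqp5 was called higher and Amy1 lower. Adipocyte markers reached 989 to 1249 CPM in AEW cheeks and 1297 to 2224 CPM in vehicle cheeks, with 1 of 6 called lower (Adipoq). Fibroblast markers reached 7371 to 12549 CPM in AEW cheeks and 7200.2 to 9531 CPM in vehicle cheeks, with 1 of 7 called higher (Pdgfra). Endothelial markers reached 206 to 251 CPM in AEW cheeks and 285 to 387 CPM in vehicle cheeks, with 1 of 5 called lower (Emcn). Neutrophil markers reached 10.9 to 36.8 CPM in AEW cheeks and 6.84 to 9.997 CPM in vehicle cheeks, and of only 2 tested 1 was called higher (Cxcr2). Macrophage markers reached 437 to 1106 CPM in AEW cheeks and 392 to 871 CPM in vehicle cheeks, and the smallest edgeR adjusted p among the 6 was 0.331. T cell markers reached 21.8 to 27.0 CPM in AEW cheeks and 35.7 to 39.1 CPM in vehicle cheeks, with 1 of 4 tested called lower (Cd3g). Their part in the keratin results was not tested.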
